A study of Mus musculus with 8 samples.

Results

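The collagen genes, taken as all rows of the deposited table whose symbol is Col, a number, the letter a and a number, comprised 44 of 21959 genes. Polyadenylated RNA was sequenced from 8 libraries of mouse brain, all of the genotype WT. The 4 Model libraries came from mice whose treatment label is PCPA, the usual abbreviation of an inhibitor of serotonin synthesis. The 4 IsoL libraries came from mice given isoliensinine, a plant alkaloid, and the labels do not say whether these mice also received PCPA. The design text names female ICR mice, dosing over 7 days, isoliensinine at 12.5, 25 or 50 mg/kg without saying which dose was sequenced, a pentobarbital sleep test at the end, and hypothalamus as the part dissected. The label of the tissue says brain only, and no age is stated in the labels. Against the stated sex, 4 Y-linked genes together had 4330 to 6779 reads in every library. Nothing in the labels ties each library to its own mouse, so the p-values rest on a spread between libraries that may be technical.

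Collagens are secreted or membrane proteins whose chains wind around each other into a stiff helix. Fibrillar collagens build the tensile fibres of the meninges and of the outer coat of blood vessels, and in the brain they come mainly from fibroblasts. Collagen IV forms the sheet of the basement membrane under endothelium and around the brain surface. Some collagens, such as Col25a1, are made by neurons, so the family as a whole is not a readout of meninges and vessels alone.

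Summed counts ran from 14262836 to 21620466 per library, and collagen genes took 0.0708 to 0.0924% of them. Neuron markers were abundant in every library (summed level of 12 genes 7514 to 8317 CPM, the count scaled to a library of common size). The 15 hypothalamus markers summed to 209 to 246 CPM in Model and 88.6 to 173 CPM in IsoL, and Pmch, one of their number, was the only gene of the pathway and marker lists that passed the test below. The choroid plexus markers summed to 78.4 to 85.0 CPM in the Model libraries, and to 842, 734, 136 and 79.6 CPM in IsoL 1 to 4. Of the 14 hypothalamus markers tested, 12 were below Model, with a median log2 fold change of -0.66. In 7 of them every IsoL library lay below every Model library, against 4.42% of all tested genes. Marker levels thus differed between libraries and, for most hypothalamus markers, between the groups. Their part in the results was not tested beyond the values given with each result.

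No collagen gene passed the test between IsoL and Model. Col1a1, Col1a2, Col3a1, Col6a1 and Col6a2, collagens of fibroblasts, differed several-fold between libraries of the Model group, while Col4a1 and Col4a2 of the vessel basement membrane stayed within narrow limits in all 8 libraries. Of 42 collagen genes with enough counts to be tested, 0 passed at a Benjamini-Hochberg adjusted p of 0.05 in edgeR's quasi-likelihood test, where 0.275% of all 14536 genes tested passed. At an unadjusted p under 0.05 there were 4, all higher in IsoL, where 13.2% of all tested genes reached that level, 6.44% higher and 6.78% lower. At the adjusted threshold the calls over all genes were 0.117% higher and 0.158% lower. DESeq2 called 2, Col16a1 and Col9a3, against 2.14% of all genes, and limma voom called 2, Col16a1 and Col11a2, against 1.64%. The median log2 fold change of the 42 genes was 0.04, with 25 above Model, and that of all tested genes was -0.00146. The summed level of all 44 genes was 825 ± 82.3 CPM in Model and 843 ± 26.9 CPM in IsoL (SD, n = 4). The 2 genes not tested were Col10a1, with 10 reads over the Model and 12 over the IsoL libraries, and Col17a1, with 28 and 42.

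**Figure D1:**
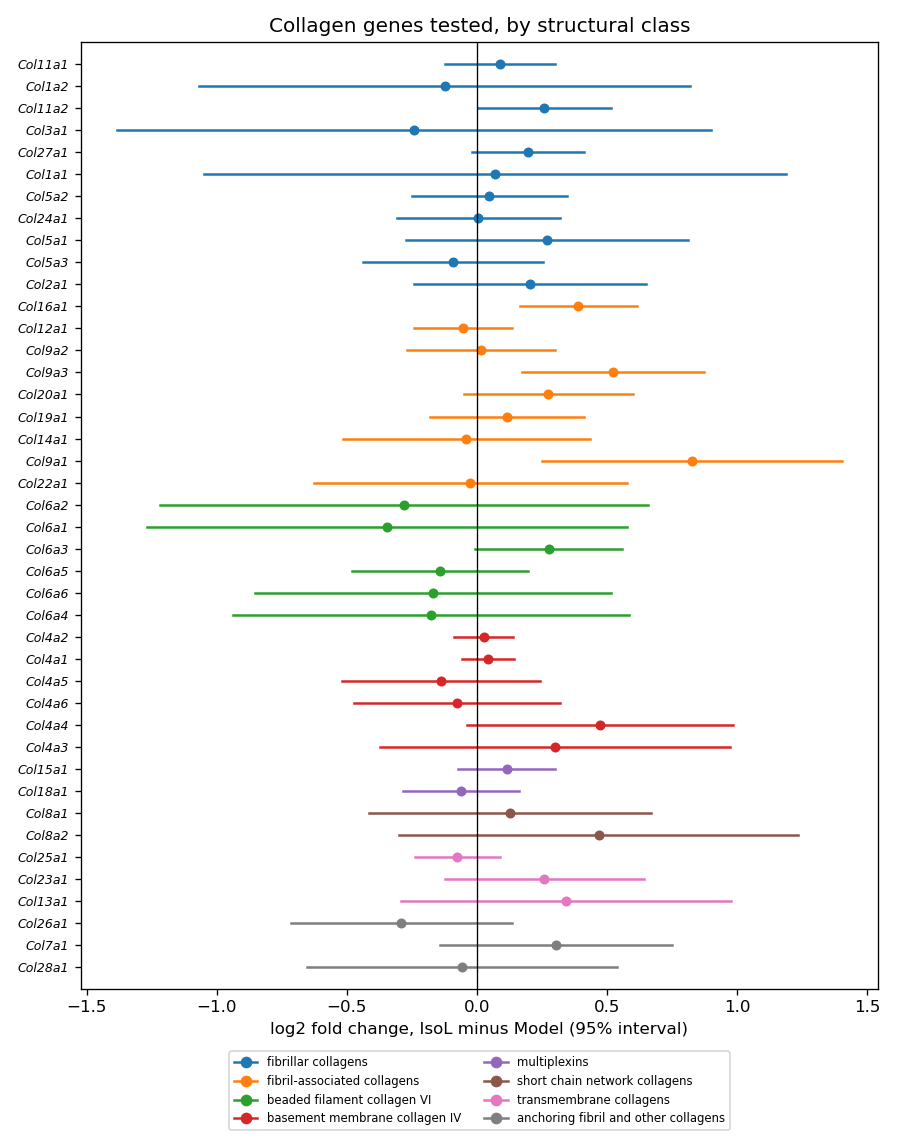
Log2 fold change of IsoL over Model for the 42 collagen genes tested, one row per gene, coloured by structural class, with its 95% interval from edgeR. The intervals of Col1a1, Col1a2, Col3a1, Col6a1 and Col6a2 are wide, those of Col4a1 and Col4a2 are narrow, and 4 intervals, those of Col16a1, Col9a3, Col9a1 and Col11a2, lie above 0.

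Per kilobase of the deposited gene length, the most abundant collagen RNA was Col25a1, at 15.3 CPM per kilobase averaged over the 8 libraries. It encodes a transmembrane collagen of neurons whose shed part is found in amyloid plaques. Col4a2 followed at 12.8 and Col4a1 at 11.1 CPM per kilobase, then Col9a2 at 6.21, Col11a2 at 4.84, Col9a3 at 4.83 and Col16a1 at 4.62. The chains of type I collagen were next to each other in this order, with Col1a1 at 2.92 and Col1a2 at 2.87 CPM per kilobase, and Col3a1 stood at 2.16. The lowest tested gene was Col6a4, at 0.126 CPM per kilobase. The gene length of the table sets this scale, and a transcript shorter than that length would be placed too low.

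The fibrillar chains of types I and III had the same order of libraries in the Model group. Col1a1 (ENSMUSG00000001506, chromosome 11, 94827050 to 94843868 in the deposited coordinates, of a build that the labels do not name), the main chain of type I collagen, was at 6.15 CPM in Model 1, 15.6 in Model 2, 32.1 in Model 3 and 21.2 in Model 4, and at 19.5, 14.7, 19.1 and 25.2 CPM in IsoL 1 to 4. Model 1 was the lowest and Model 3 the highest of all libraries, so the IsoL libraries lay inside the Model range. The log2 fold change was 0.07 (95% interval -1.05 to 1.19, edgeR adjusted p = 0.966), and it was -0.22 without Model 1 and 0.46 without Model 3. Col1a2 (chromosome 6, 4504814 to 4541544), its partner chain, was at 15.0, 35.0, 56.2 and 42.8 CPM in Model 1 to 4 and at 33.6, 25.6, 34.3 and 42.8 CPM in IsoL 1 to 4. Its range over the Model libraries was 3.76-fold, with the same lowest and highest library as Col1a1, and its log2 fold change was -0.12 (95% interval -1.07 to 0.82, edgeR adjusted p = 0.922), or -0.38 without Model 1 and 0.15 without Model 3. Col3a1 (chromosome 1, 45350698 to 45388866), which forms fine fibrils with type I, was at 7.20, 23.2, 38.6 and 23.2 CPM in Model 1 to 4 and at 18.1, 14.6, 18.5 and 26.3 CPM in IsoL 1 to 4. The groups overlapped fully again (log2 -0.24, 95% interval -1.38 to 0.90, edgeR adjusted p = 0.868), and the value was -0.54 without Model 1 and 0.13 without Model 3. Fewer fibroblasts and less collagen RNA per fibroblast cannot be told apart in bulk tissue.

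Col5a1, a chain of the type V collagen that starts fibrils, had the same lowest and highest Model library, at 4.27 and 10.99 CPM, with 7.48 to 11.6 CPM in IsoL (log2 0.27, edgeR adjusted p = 0.683). The type XI chains, which limit fibril width, were steadier. Col11a1 averaged 40.9 ± 5.04 CPM in Model and 43.5 ± 5.01 in IsoL (SD, n = 4; log2 0.09, edgeR adjusted p = 0.735). Over the 11 fibrillar genes, 8 were above Model and 3 below, none passed, and the median log2 fold change was 0.07.

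Collagen VI makes beaded microfibrils around fibroblasts and vessels, and its main chains had the order of libraries of type I. Col6a1 (chromosome 10, 76544626 to 76562002) was at 5.11, 10.4, 21.6 and 13.9 CPM in Model 1 to 4 and at 8.96, 8.81, 10.9 and 11.3 CPM in IsoL 1 to 4. Col6a2 (chromosome 10, 76431596 to 76459464) was at 5.73, 11.6, 23.8 and 17.0 CPM in Model 1 to 4 and at 11.5, 9.74, 12.9 and 13.6 CPM in IsoL 1 to 4. In both genes all IsoL libraries lay between Model 1 and Model 3. Their log2 fold changes were -0.35 and -0.28 (edgeR adjusted p = 0.749 and 0.804), without Model 1 they were -0.61 and -0.54, and without Model 3 they were 0.03 and 0.06. Col6a3, the longest chain, did not follow them, with 8.88 to 10.2 CPM in Model and 9.74 to 14.4 CPM in IsoL (log2 0.28, edgeR adjusted p = 0.3905). Of the 6 type VI genes, 1 was above Model and 5 below, none passed, and the median log2 fold change was -0.17. Col6a5 averaged 4.22 ± 0.550 CPM in Model and 3.82 ± 0.0747 in IsoL (SD, n = 4), and Col6a6 ran from 1.82 to 6.33 CPM in Model and from 2.61 to 4.22 CPM in IsoL.

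**Figure D2:**
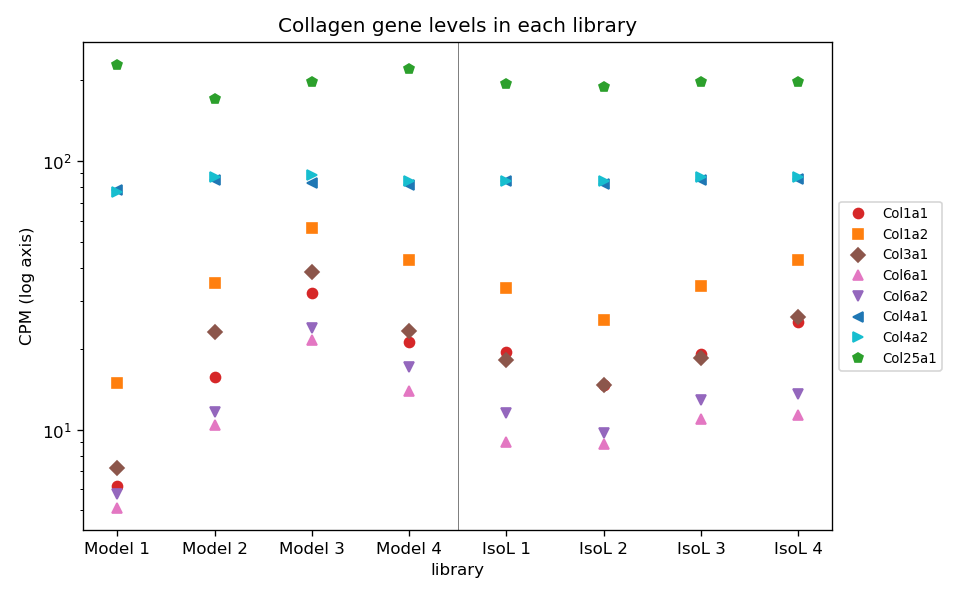
CPM (log axis) of 8 collagen genes in each library, one marker per gene. Model 1 is the lowest and Model 3 the highest library for Col1a1, Col1a2, Col3a1, Col6a1, Col6a2 and Col4a2, and Model 1 is the lowest for Col4a1. Col4a1 and Col4a2 stay in the narrow range of 76.9 to 88.5 CPM, and Col25a1 between 170 and 229 CPM.

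The spread of these 5 genes was large beside that of other genes at their level. edgeR's biological coefficient of variation, the spread between libraries of a group beyond counting error, was 45.9% for Col1a1, 38.4% for Col1a2, 46.5% for Col3a1, 37.8% for Col6a1 and 38.4% for Col6a2. The trend over genes of the same abundance was 8.16 to 12.4% for them. The ratio of a gene's value to its trend was smaller in 99.1 to 99.6% of all tested genes. In the Model group 12 of 42 collagen genes (28.6%) had a highest library at least 2 times the lowest, against 8.72% of all tested genes, and in the IsoL group 2 of 42 (4.76%) against 5.85%. Model 1 was the lowest and Model 3 the highest Model library in 15 of 42 collagen genes (35.7%), against 9.32% of all tested genes. Of the 12 genes with the wide range, Model 1 was the lowest library in 11 and Model 3 the highest in 9. These counts were chosen after the values were seen and are a description.

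**Figure D3:**
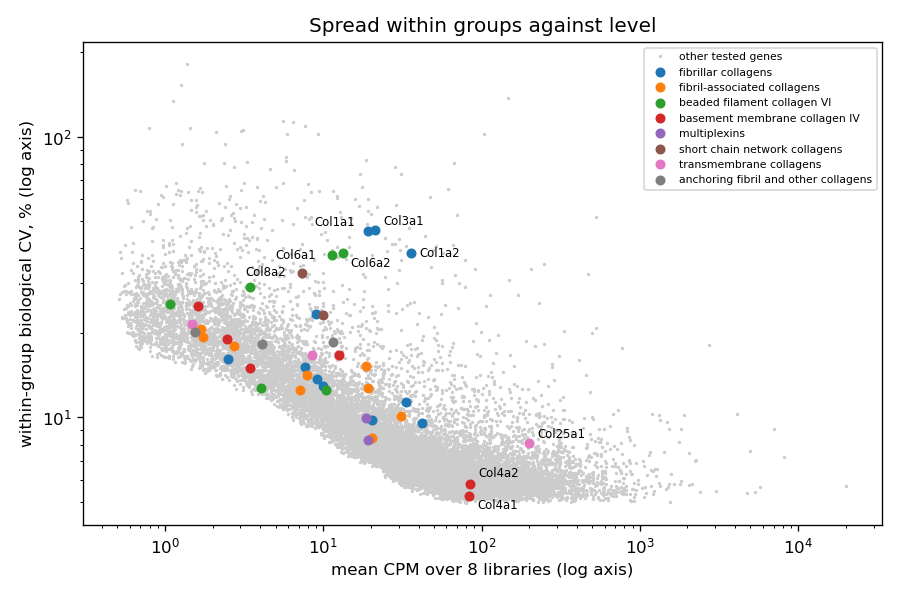
Within-group biological coefficient of variation (%, log axis) against mean CPM over the 8 libraries (log axis), with collagen genes coloured by class and the other tested genes in grey. Col1a1, Col1a2, Col3a1, Col6a1 and Col6a2 lie between 37.8 and 46.5%, above most genes of their level, and Col4a1 and Col4a2 lie at 5.25 and 5.80%.

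Markers of meningeal fibroblasts had the same lowest and highest Model library. Of 19 such markers tested, 17 had Model 1 as the lowest and Model 3 as the highest Model library, where 9.32% of all tested genes did. None of the 19 passed between the groups (4 above and 15 below Model, median log2 fold change -0.25). Their sum without Pdgfra, which oligodendrocyte precursors also express, was 86.7 CPM in Model 1, 246 in Model 2, 336 in Model 3 and 212 in Model 4, and 185, 168, 190 and 216 CPM in IsoL 1 to 4. The sum of Col1a1, Col1a2 and Col3a1 was 28.3, 73.8, 127 and 87.2 CPM in Model 1 to 4 and 71.2, 54.9, 71.9 and 94.2 CPM in IsoL 1 to 4. In both sums Model 1 was the lowest and Model 3 the highest of the 8 libraries, and within IsoL library 2 was the lowest and library 4 the highest. None of the 20 markers was at 0 in any library. Slc47a1, a transporter of meningeal cells, ran from 0.3496 CPM in Model 1 to 6.68 CPM in Model 3 and from 0.982 to 1.96 CPM in IsoL (log2 -1.12, edgeR adjusted p = 0.492). Slc22a8 averaged 33.4 ± 7.33 CPM in Model and 28.1 ± 1.26 in IsoL (SD, n = 4; edgeR adjusted p = 0.476), and Slc13a3 at 28.6 ± 6.56 and 26.1 ± 2.20 (edgeR adjusted p = 0.748). Pdgfra averaged 86.0 ± 7.78 and 90.2 ± 3.33 CPM (SD, n = 4). The part of the share of meninges in the collagen values was not tested.

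**Figure D4:**
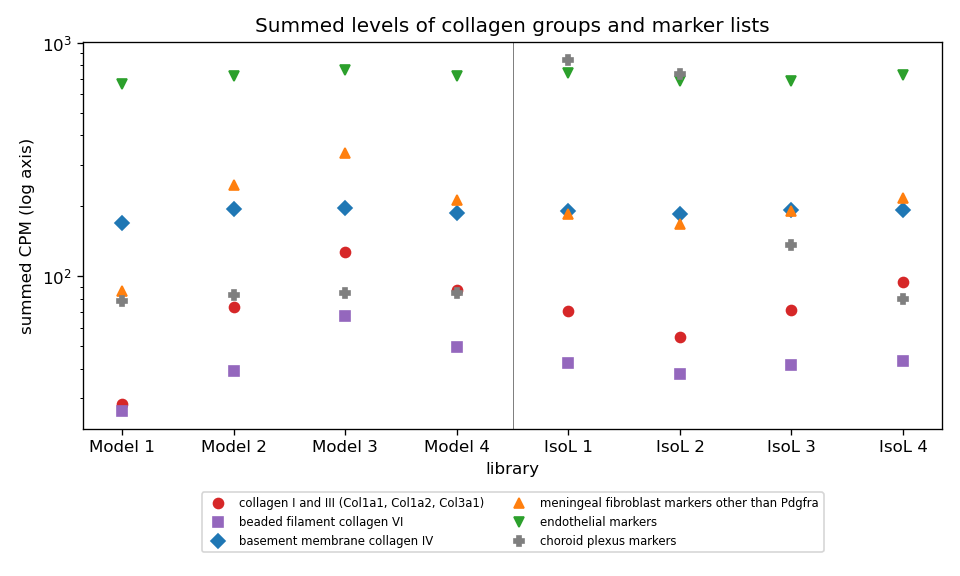
Summed CPM (log axis) of collagen groups and of marker lists in each library. Collagen I and III, collagen VI and the meningeal fibroblast markers are lowest in Model 1 and highest in Model 3. Collagen IV and endothelial markers have the same lowest and highest library in narrower ranges, 168.5 to 196.6 and 662 to 760 CPM. Choroid plexus markers are high in IsoL 1 and IsoL 2.

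The RefSeq promoter table (GRCm38.p6) held windows for 35 of the 44 genes, 38 windows in all. The 250 bases before the start are shown for 4 of the genes whose libraries kept the same order in the Model group (Col1a2, Col3a1, Col6a1 and Col6a2) and for the neuronal Col25a1, so that the promoters of genes with like and unlike library patterns can be read beside each other. Capitals mark the CCAAT box on either strand, the letters TATAAA of a TATA box and the letters GGGCGG of a GC box, likewise on either strand. The windows are chr6:4505368-4505617 on the plus strand for Col1a2, chr1:45311288-45311537 on the plus strand for Col3a1, chr10:76726045-76726294 on the minus strand for Col6a1, chr10:76623405-76623654 on the minus strand for Col6a2 (the first of 2 windows of this gene) and chr3:130180595-130180844 on the plus strand for Col25a1.
Col1a2: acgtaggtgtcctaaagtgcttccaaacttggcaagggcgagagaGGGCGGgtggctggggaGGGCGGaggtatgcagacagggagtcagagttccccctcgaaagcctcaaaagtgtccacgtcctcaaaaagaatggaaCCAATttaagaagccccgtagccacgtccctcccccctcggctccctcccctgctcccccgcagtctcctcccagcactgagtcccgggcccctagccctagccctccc
Col3a1: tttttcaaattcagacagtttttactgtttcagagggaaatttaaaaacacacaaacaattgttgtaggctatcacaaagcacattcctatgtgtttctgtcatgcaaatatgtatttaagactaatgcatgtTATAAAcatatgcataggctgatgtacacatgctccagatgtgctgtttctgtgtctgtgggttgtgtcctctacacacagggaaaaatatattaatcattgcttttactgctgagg
Col6a1: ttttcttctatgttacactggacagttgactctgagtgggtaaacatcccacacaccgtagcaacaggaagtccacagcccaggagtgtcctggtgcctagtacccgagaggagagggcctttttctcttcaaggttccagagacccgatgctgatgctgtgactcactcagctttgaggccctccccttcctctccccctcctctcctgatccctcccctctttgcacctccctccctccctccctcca
Col6a2: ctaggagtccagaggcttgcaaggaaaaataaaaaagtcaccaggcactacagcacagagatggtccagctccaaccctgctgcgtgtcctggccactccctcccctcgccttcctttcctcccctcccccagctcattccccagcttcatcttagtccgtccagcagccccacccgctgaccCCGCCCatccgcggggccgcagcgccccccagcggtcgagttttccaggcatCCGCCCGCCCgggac
Col25a1: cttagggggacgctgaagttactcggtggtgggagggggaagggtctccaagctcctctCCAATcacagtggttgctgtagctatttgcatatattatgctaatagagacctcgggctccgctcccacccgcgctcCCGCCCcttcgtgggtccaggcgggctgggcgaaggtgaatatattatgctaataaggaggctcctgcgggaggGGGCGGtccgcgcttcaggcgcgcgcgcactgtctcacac
Col1a2 and Col25a1 each held 1 CCAAT and 2 GGGCGG, Col3a1 held 1 TATAAA, Col6a2 held 3 GGGCGG of which a pair overlap, and Col6a1 held none of these letters. The GC content was 62.0% for Col1a2, 35.2% for Col3a1, 56.0% for Col6a1, 64.4% for Col6a2 and 60.4% for Col25a1, with a median of 52.4% over all 32851 windows. None of these marked motifs was shared by the 4 windows of genes with the same library order, and no other motif was searched for. Over the 38 collagen windows, CCAAT was found in 34.2%, TATAAA in 13.2% and GGGCGG in 57.9%, against 33.8%, 12.4% and 32.7% of all windows. These matches are a description of letters, not of sites in use.

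The main chains of collagen IV, the collagen of the basement membrane, varied little. Col4a1 (chromosome 8, minus strand, 11248423 to 11362826) was at 78.0, 84.7, 83.1 and 81.4 CPM in Model 1 to 4 and at 84.2, 82.2, 84.7 and 85.4 CPM in IsoL 1 to 4. Col4a2 (chromosome 8, plus strand, 11362805 to 11499287) was at 76.9, 87.5, 88.5 and 84.3 CPM in Model 1 to 4 and at 84.4, 84.5, 87.5 and 86.9 CPM in IsoL 1 to 4. Model 1 was the lowest library for both genes, and Model 3 the highest for Col4a2, within this small range. The chains encoded by these genes are assembled together under endothelium, and the groups overlapped in both. The log2 fold changes were 0.04 (95% interval -0.06 to 0.14, edgeR adjusted p = 0.746) and 0.03 (95% interval -0.09 to 0.14, edgeR adjusted p = 0.873). In the deposited coordinates the genes lie head to head and overlap by 22 bases at their starts, so without strand marking reads in that overlap cannot be assigned. The ratio of Col4a2 to Col4a1 per length stayed between 1.11 and 1.20 over the 8 libraries, and that of Col6a1 to Col6a2 between 1.48 and 1.73.

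The ratio of Col1a1 to Col1a2 per length varied more within Model, at 0.779, 0.847, 1.08 and 0.938 in Model 1 to 4, and at 1.10, 1.08, 1.05 and 1.11 in IsoL 1 to 4. The Model 3 value lay within the IsoL values and the other Model libraries lay below them. The ratio was read after the values were seen and was not tested.

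The minor collagen IV chains are those of specialised membranes and had fewer reads. Col4a5 ran from 8.18 CPM in Model 1 to 17.1 CPM in Model 3 and from 11.1 to 12.7 CPM in IsoL (log2 -0.14, edgeR adjusted p = 0.771). Col4a6 averaged 3.54 ± 0.600 CPM in Model and 3.35 ± 0.402 in IsoL, and Col4a4 at 2.07 ± 0.457 and 2.89 ± 0.643 (SD, n = 4; edgeR adjusted p = 0.893 and 0.419). Of the 6 type IV genes, 4 were above Model, none passed, and the median log2 fold change was 0.03. Col15a1 and Col18a1, proteoglycan collagens at the edge of basement membranes and the latter the source of endostatin, were at 18.5 ± 1.57 and 18.9 ± 2.58 CPM in Model and at 19.99 ± 1.39 and 18.1 ± 1.49 CPM in IsoL (SD, n = 4; edgeR adjusted p = 0.607 and 0.835).

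Most endothelial markers and most pericyte and smooth muscle markers varied less than 2-fold between the Model libraries. The smooth muscle markers Acta2, Myh11 and Cnn1 varied more. The 20 endothelial markers summed to 662 to 760 CPM in Model and 684 to 743 CPM in IsoL, with none called, 8 above Model and a median log2 fold change of -0.02. Their sum was lowest in Model 1 and highest in Model 3 of all libraries. The highest Model library was at least 2 times the lowest in 1 of the 20, Vwf, the gene of von Willebrand factor, at 8.81, 16.3, 40.3 and 28.8 CPM in Model 1 to 4 and 21.1 to 27.4 CPM in IsoL. Model 1 was the lowest and Model 3 the highest Model library in 5 of the 20, against 9.32% of all tested genes. It was the lowest Model library in 10 of the 20, against 22.9% of all tested genes. Flt1, a VEGF receptor gene, averaged 114 ± 9.72 and 108 ± 9.95 CPM, and Mfsd2a, a lipid transporter of the blood-brain barrier, at 23.0 ± 0.336 and 26.6 ± 1.24 CPM (SD, n = 4; log2 0.21, edgeR adjusted p = 0.213). The 15 pericyte and smooth muscle markers summed to 382 to 448 CPM in Model and 384 to 468 CPM in IsoL, with none called. Of the 14 tested, 7 had Model 1 as the lowest and Model 3 as the highest Model library, and 4 had a highest Model library at least 2 times the lowest: Acta2, Myh11, Cnn1 and Anpep. Over all tested genes the shares were 9.32% for that order and 8.72% for that range. Acta2, smooth muscle actin, was at 16.6, 32.5, 50.6 and 37.1 CPM in Model 1 to 4 and 17.0 to 40.1 CPM in IsoL. Myh11, smooth muscle myosin, was at 19.8, 29.7, 41.0 and 33.5 CPM in Model 1 to 4 and 16.5 to 37.8 CPM in IsoL. Both had the lowest and highest Model library of the type I and VI collagens. Cnn1, calponin, was at 0.4196 CPM in Model 1 and 2.07 to 2.38 CPM in the other Model libraries, and Anpep ran from 3.5 CPM in Model 1 to 7.51 CPM in Model 3. The part of vessel smooth muscle in the collagen values was not tested. Vtn, a pericyte gene in brain, averaged 61.6 ± 8.75 and 68.5 ± 10.4 CPM (SD, n = 4). One pericyte or smooth muscle marker and no endothelial marker had a library at 0.

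The 4 collagen genes with an unadjusted p under 0.05 were 3 fibril-associated collagens, which sit on the surface of fibrils, and Col11a2. Col16a1 (chromosome 4, 129941633 to 129993076), a fibril-associated collagen, was at 21.7, 28.1, 32.7 and 25.4 CPM in Model 1 to 4 and at 33.3, 34.7, 38.6 and 34.7 CPM in IsoL 1 to 4. Every IsoL library lay above every Model library, which was true of 2 of 42 collagen genes and of 4.05% of all tested genes. No collagen gene had every IsoL library below, against 4.42%, and 8.48% of all tested genes did not overlap in one direction or the other. The log2 fold change was 0.39 (95% interval 0.16 to 0.61, edgeR adjusted p = 0.133). Its adjusted p was 0.0382 in DESeq2 and 0.0342 in limma voom, both past the threshold. Without IsoL 1 and IsoL 2, the libraries with the highest choroid plexus sums, the log2 fold change was 0.44 (edgeR adjusted p = 0.364).

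Col9a1, Col9a2 and Col9a3 encode the chains of type IX collagen, known best from cartilage. Col9a3 was at 13.1, 15.9, 15.0 and 16.9 CPM in Model 1 to 4 and at 24.0, 28.6, 18.4 and 16.8 CPM in IsoL 1 to 4. IsoL 1 and IsoL 2 were high, IsoL 4 lay inside the Model range, and the groups overlapped. The log2 fold change was 0.52 (95% interval 0.17 to 0.87, edgeR adjusted p = 0.203; DESeq2 adjusted p = 0.0497). IsoL 1 and IsoL 2 were also the libraries with the high choroid plexus sums given above. The 10 cortex and hippocampus markers were high in the same libraries, with sums of 598, 597, 472 and 459 CPM in IsoL 1 to 4 and 439 to 493 CPM in Model. Of these, 9 were tested and none passed, 1 had libraries at 0, and Neurod2, a transcription factor of cortical neurons, was at 16.2, 12.3, 1.14 and 2.38 CPM in IsoL 1 to 4 and 0.883 to 1.47 CPM in Model. Slc17a7, a glutamate transporter of the same neurons, was at 160, 146, 78.0 and 59.9 CPM in IsoL 1 to 4, and Bcl11b at 32.1, 25.3, 13.5 and 17.0 CPM. Without IsoL 1 and IsoL 2 the log2 fold change of Col9a3 was 0.21 (edgeR adjusted p = 0.686), and the part of either marker list in it was not tested. Among the choroid plexus markers was Ttr, the transthyretin gene of choroid plexus epithelium. It was at 609, 521, 44.9 and 0.458 CPM in IsoL 1 to 4 and 1.06 to 4.59 CPM in Model. Folr1 was at 7.86, 7.07, 1.77 and 0.779 CPM in IsoL 1 to 4 and 0.280 to 0.696 CPM in Model. Otx2 was at 19.0, 12.3, 10.7 and 15.0 CPM in IsoL 1 to 4 and 5.1 to 9.6 CPM in Model. Its IsoL 4 value thus lay above its IsoL 2 value, unlike those of Ttr and Folr1. Of the 15 choroid plexus markers 11 were tested, 10 were above Model, none passed, and 1 was at 0 in a library.

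Col9a1 was at 1.75, 1.06, 1.32 and 0.883 CPM in Model 1 to 4 and at 2.03, 2.90, 1.90 and 2.06 CPM in IsoL 1 to 4, with no overlap of the groups (log2 0.83, 95% interval 0.25 to 1.40, edgeR adjusted p = 0.210). Col9a2 did not share this, at 19.1 ± 3.30 CPM in Model and 19.3 ± 2.81 in IsoL (SD, n = 4; log2 0.02, edgeR adjusted p = 0.971). Col11a2 (chromosome 17, 34258411 to 34285659) was at 27.1, 39.7, 25.8 and 28.5 CPM in Model 1 to 4 and at 37.6, 34.1, 36.4 and 37.1 CPM in IsoL 1 to 4. Model 2 was the highest of all libraries, and the other Model libraries lay below all of IsoL. The log2 fold change was 0.26 (95% interval 0.00301 to 0.51, edgeR adjusted p = 0.369), and without Model 2 it was 0.42 (edgeR adjusted p = 0.00937), where 0.998% of genes passed. Limma voom, which weights libraries by quality, gave an adjusted p of 0.0263.

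**Figure D5:**
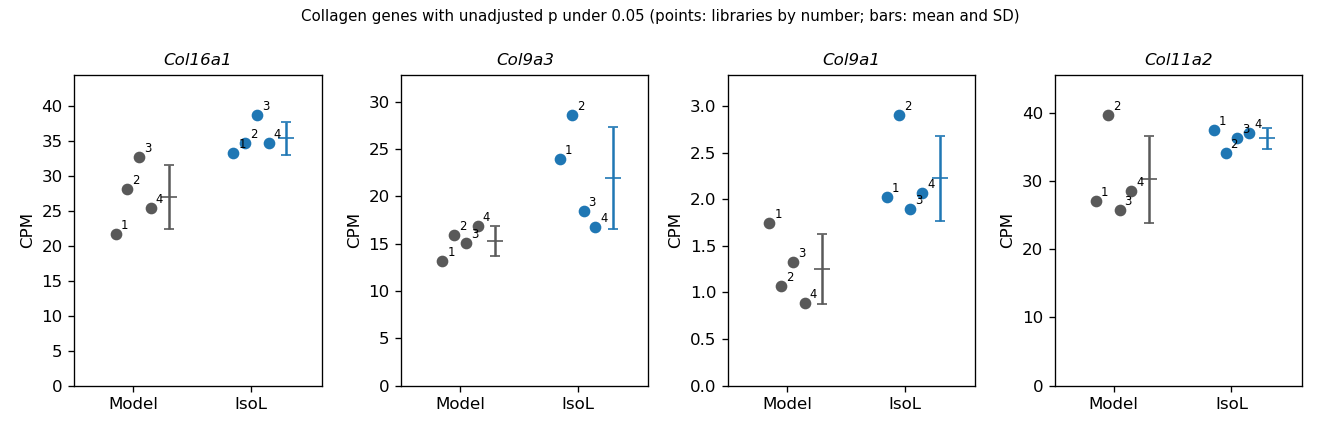
CPM of the 4 collagen genes with an unadjusted p under 0.05, points being libraries with their number and bars the mean and SD of 4 libraries. Col16a1 and Col9a1 do not overlap between groups, Col9a3 is high in IsoL 1 and IsoL 2, and Model 2 is the highest library for Col11a2.

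Of 9 fibril-associated genes 6 were above Model and 3 below, with a median log2 fold change of 0.12 and a summed level of 102 ± 8.25 CPM in Model and 119 ± 4.61 in IsoL (SD, n = 4). Col12a1, another of this class, averaged 20.7 ± 1.84 and 19.9 ± 1.49 CPM. Its 95% interval of -0.24 to 0.13 log2 was one of 4 among the collagen genes that lay wholly within 0.25 of 0, with those of Col4a1, Col4a2 and Col25a1. These are 9.52% of the 42 collagen genes, against 40.9% of all tested genes.

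Col8a1 and Col8a2 encode short chain collagens of vascular and corneal matrix. Col8a1 was at 6.71 to 10.8 CPM in Model and at 13.9, 13.1, 7.84 and 7.06 CPM in IsoL 1 to 4. The log2 fold change was 0.13 (edgeR adjusted p = 0.863) and turned to -0.36 without IsoL 1 and IsoL 2, the high libraries of both the choroid plexus and the cortex and hippocampus markers. Col8a2 was at 3.36, 3.25, 8.90 and 9.03 CPM in Model 1 to 4 and at 7.52 to 9.39 CPM in IsoL (log2 0.47, edgeR adjusted p = 0.599), so Model 1 and Model 2 were low and the other Model libraries lay with IsoL.

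Col25a1 (chromosome 3, 129925150 to 130393526) was at 229, 170, 198 and 220 CPM in Model 1 to 4 and at 193, 189, 197 and 197 CPM in IsoL 1 to 4. The order was not that of the fibroblast collagens, since Model 1 was the highest library (log2 -0.08, 95% interval -0.24 to 0.09, edgeR adjusted p = 0.714). The other transmembrane collagens tested, Col23a1 and Col13a1, had log2 fold changes of 0.26 and 0.34 (edgeR adjusted p = 0.567 and 0.659). Col7a1, the anchoring fibril collagen of skin, averaged 3.68 ± 1.03 CPM in Model and 4.57 ± 0.743 in IsoL, Col26a1 at 12.7 ± 3.63 and 10.4 ± 1.76, and Col28a1 at 1.58 ± 0.422 and 1.53 ± 0.366 (SD, n = 4). None of these passed.

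Genes that make, anchor or remove collagen were counted from lists of the pathway, and none of them passed. Among 22 genes of collagen modification and secretion 10 were above Model (median log2 fold change -0.00728), and those with the smallest p were P4ha3, a prolyl hydroxylase subunit (log2 -0.30, edgeR adjusted p = 0.304), and Fkbp14, a folding enzyme (-0.19, 0.339). Among 12 tested genes of procollagen processing and crosslinking 4 were above Model (median -0.11), led by the procollagen peptidases Adamts3 (log2 0.52, edgeR adjusted p = 0.205) and Adamts14 (-0.74, 0.388). Among 9 tested collagen receptors 4 were above Model, led by the integrin chains Itga10 (log2 -0.49, edgeR adjusted p = 0.285) and Itga11 (0.43, 0.504). Among 11 tested genes of collagen degradation and its inhibitors 5 were above Model, led by Mmp14, a membrane-bound collagenase (log2 0.27, edgeR adjusted p = 0.197), and Timp2, an inhibitor of such enzymes (-0.11, 0.306).

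Among 14 laminin, nidogen and proteoglycan partners of the basement membrane 10 were above Model, with a median log2 fold change of 0.16. Lamb1, a laminin chain, averaged 19.99 ± 1.93 CPM in Model and 26.2 ± 2.31 in IsoL (SD, n = 4; log2 0.39, edgeR adjusted p = 0.08645). DESeq2 and limma voom called Lamb1. Lama5 had a log2 fold change of -0.20 (edgeR adjusted p = 0.285). Among 15 small proteoglycans and other matrix partners 7 were above Model, with Tnxb (tenascin-X) at log2 0.52 and Aspn (asporin) at -0.52 (edgeR adjusted p = 0.215 and 0.260). Their sum was lowest in Model 1 and highest in Model 3, at 140, 281, 392 and 277 CPM in Model 1 to 4 and 243, 222, 264 and 290 CPM in IsoL 1 to 4. Dcn, Lum and Ogn of this list are also among the meningeal fibroblast markers, so the sums of these lists are not separate. Fmod, the fibril-binding fibromodulin, ran from 2.03 CPM in Model 1 to 58.0 CPM in Model 3 and from 17.8 to 31.3 CPM in IsoL, and Ogn, osteoglycin, from 1.61 to 36.7 CPM in Model and from 10.3 to 16.6 CPM in IsoL.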

How the data were processed

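Polyadenylated RNA of 4 Model and 4 IsoL libraries was measured. The deposited table holds, for each gene, the read counts of every library, per the file headers, and deposited FPKM values, which matched the counts, the gene length and the library totals (largest relative difference 1.11e-09 in genes over 200 counts). The submitters' processing notes name fastp 0.22.0, HISAT2 2.1.0 and HTSeq 0.9.1. No genome build or strand marking is named in the labels.

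All tests used the counts. edgeR 4.0.16 under R 4.3.3 was used: filterByExpr kept 14536 genes, TMM gave factors of 0.983 to 1.01, and the quasi-likelihood test was run with robust settings, p-values being adjusted by Benjamini-Hochberg over all genes. CPM use the TMM-scaled library. Intervals use the standard error from F. Between libraries of a group the lowest chi-square per degree of freedom reached 2.58, so none was counted as a duplicate. DESeq2 1.42.0, limma 3.58.1, other scalings and filters, a replicate block and leaving out libraries were alternatives. The test was tried on simulated data first.

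Named were the 4 tested members of each collagen class with the highest CPM. To these were added the members that passed, of which there were none, and the 6 of all collagen genes with the smallest p. From each other list the genes that passed were named, or the 2 of smallest p where none did. From marker lists the 3 with the highest CPM were also named. This gave 75 genes, of which 54 are described. Col1a1, Col5a1, Col6a6, Col10a1, Col17a1, Fmod, Ogn, Vwf, Acta2, Myh11, Cnn1 and Anpep were named after their values were seen. The collagen genes and all lists were chosen with earlier results of these data known. Figures used matplotlib 3.10.9.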

Additional observations from a re-analysis of the deposited data

Results flagged for a closer look

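Of 182 groups of 4 libraries examined for one library far from the others, 3 were past Dixon's critical value, where chance gives about 1 in 20. Col6a5 in IsoL 2 was at 3.71 CPM against 3.85 to 3.87 CPM in the other IsoL libraries (gap 0.889 of the range). Col9a1 in IsoL 2 was at 2.90 CPM against 1.90 to 2.06 CPM (gap 0.835 of the range). Cnn1 in Model 1 was at 0.4196 CPM against 2.07 to 2.38 CPM in the other Model libraries (gap 0.841 of the range).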

How the results depend on the processing

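No collagen gene passed with DESeq2 size factors, with library totals, without a low-count filter, with at least 1 CPM in 4 libraries, with the replicate block, at an adjusted p of 0.1, or with Model 1 and Model 3 or IsoL 1 and IsoL 2 left out together (the last pair of fits was chosen after seeing the data). DESeq2 called 2, limma voom 2, and the fits without one library 0 to 1, the 1 being Col11a2 without Model 2. The median log2 fold change of all collagen genes ran from -0.00361 to 0.12 with one library left out. The count over all genes was 40, and 74 without a filter, 17 with the replicate block, 8 without Model 1 and Model 3, 311 in DESeq2, 238 in limma voom, 138 at an adjusted p of 0.1 and 6 to 146 with one library left out, the highest without Model 2. The count over the pathway and marker lists was 1 (Pmch), and 2 without a filter, 0 with the replicate block, 0 in either fit without a pair of libraries, 14 in DESeq2, 6 in limma voom, 5 at an adjusted p of 0.1 and 0 to 1 with one library left out. Same-numbered libraries had deviations from their group means correlated at 0.0199 to 0.0696, and none matched its own number best. This shows no strong pairing by number over all tested genes, and cannot tell whether same-numbered libraries were handled together. Of 1086 log2 fold changes of 64 named genes under the 17 alternative fits, 1026 kept direction and side of the threshold, 11 passed newly, 10 (of Pmch) no longer passed and 39 turned direction, the cause of which was not tested. With one library left out the log2 fold change ran from -0.22 to 0.46 for Col1a1, -0.38 to 0.15 for Col1a2, -0.54 to 0.13 for Col3a1, -0.0159 to 0.0551 for Col4a2, -0.31 to 0.0161 for Col4a5, -0.61 to 0.0333 for Col6a1, -0.54 to 0.0623 for Col6a2, -0.39 to 0.23 for Col6a6, -0.0373 to 0.28 for Col8a1, -0.0672 to 0.13 for Col9a2, -0.13 to 0.0165 for Col18a1, -0.22 to 0.0796 for Col28a1 and -0.17 to 0.49 for Vwf, while the log2 fold change of Cnn1 ran from -0.41 to 0.0716 and the log2 fold change of Anpep from -0.37 to 0.0511. Without Model 1 and Model 3 it was -0.00109 for Col4a2, -0.095 for Col9a2 and 0.0592 for Col28a1. Without IsoL 1 and IsoL 2 it was 0.053 for Col1a2, -0.36 for Col8a1 and 0.0289 for Col18a1, the log2 fold change of Myh11 was 0.0212, that of Cnn1 0.26, and the log2 fold change of Slc17a7 was -0.0316. In limma voom it was 0.0249 for Col18a1 and 0.11 for Col28a1. Genes under about 2 CPM, such as Col9a1, Col10a1 and Col17a1, are limited by depth.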
